A study of Mus musculus with 4 samples.

Results

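The brain section of a susceptible mouse treated with ketamine was compared with the brain section of a resilient mouse, spot by spot and cell type by cell type. All spots of both sections were used, which gave 7633 of the 14809 spots of the series, 3477 from the ketamine-treated and 4156 from the resilient section. The mice were wild-type C57 mice. Those classed as susceptible or resilient had gone through chronic social defeat stress, in which a mouse is defeated repeatedly by an aggressor. A social interaction test then sorted them into susceptible ones, which avoid contact, and resilient ones, which do not. The ketamine-treated mouse was susceptible and received ketamine intraperitoneally at 10 mg/kg, with the brain collected 7 days later. The resilient mouse had undergone the same stress and received saline. The control mouse and the untreated susceptible mouse also received saline, and their sections serve here as reference points only. The comparison therefore spans both the behavioural class and the drug. The sections were cut sagittally and placed on spatially barcoded arrays.

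Oligodendrocytes wrap axons in myelin, the insulating sheath that the title of the series places at the centre of the lasting effect of ketamine, and they arise from oligodendrocyte precursor cells. Ketamine blocks the NMDA class of glutamate receptors and acts rapidly against depression-like behaviour. Glutamatergic neurons of the cortex are layered, with intratelencephalic (IT) cells of the upper layers connecting cortical areas and pyramidal-tract (PT) cells of layer 5 projecting below the cortex, while GABAergic interneurons such as the Pvalb class provide local inhibition.

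A spot is a small patch of tissue that can hold several cells. The authors deposited, for each spot, the fraction assigned to each of 67 cell types and a cluster number from 1 to 17. Here the mean share of a type is the average, in percent, of its fraction over every spot of the section, a spot holds a type when its fraction is above 0, and a type leads a spot when its fraction is the highest there. A cluster is said to be led by the types with the highest mean share in it. The intervals given with spot counts are exact Clopper-Pearson 95% intervals, and intervals that do not overlap are called separate. They cover counting error only, because neighbouring spots are not independent. Each group was represented by 1 section, so no test across animals was possible, and differences between mice, sections, slides, cutting planes, behavioural class and treatment cannot be told apart. Shares are relative, so a higher share of 1 type lowers the others, and fewer cells of a type cannot be told apart from less RNA per cell. Marker genes were not analysed here, so the names of the tissue and of the types were not checked against expression.

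The sections had 65 types (ketamine-treated) and 66 types (resilient), and no spot held more than 6. The ketamine-treated spots were slightly simpler, with a mean of 2.14 types per spot against 2.31 in the resilient section. Spots of a single type made up 24.2% (22.8 to 25.7%) of the ketamine-treated and 20.4% (19.2 to 21.6%) of the resilient section. Spots given no type, labelled unknown, numbered 123 (3.54%, 2.95 to 4.21%) and 96 (2.31%, 1.87 to 2.81%). The section with fewer types per spot can be expected to hold any given type in fewer spots, so mean shares are given beside the counts of spots.

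By class, the ketamine-treated section had less of the oligodendrocyte lineage and of GABAergic neurons and more of glutamatergic neurons than the resilient section. The oligodendrocyte lineage had a mean share of 13.0% against 16.4%, and its spots made up 24.8% (23.4 to 26.3%) against 31.7% (30.3 to 33.2%). GABAergic neurons had 9.13% against 11.4%, in 20.3% (19.0 to 21.7%) against 25.1% (23.8 to 26.5%) of spots. Intervals for both classes were separate. Glutamatergic neurons had 46.1% against 43.1%. They were held by 66.5% (64.9 to 68.1%) and 65.9% (64.4 to 67.3%) of spots, intervals that overlapped, but led 45.2% (43.5 to 46.8%) against 39.5% (37.97 to 40.97%). The glutamatergic neurons thus differed in how much of their spots they filled, 69.3% against 65.4% where held, and not detectably in how many spots held them. With clusters weighted equally in both sections the glutamatergic share was 45.4% against 44.8%, and with all spots of cluster 1 left out its difference was 0.756 points and that of the oligodendrocyte lineage -0.679, beside 3.02 and -3.41 over all spots. Astrocytes, the most abundant single type, had 22.6% against 21.1% and overlapping intervals of spots holding, 45.5% (43.8 to 47.2%) and 43.7% (42.2 to 45.2%). Microglia and macrophages (1.72% against 1.87%) and vascular cells (3.89% against 3.73%) lay close together.

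Of the 23 types with a mean share of at least 1% in either section, 8 had a higher and 15 a lower mean share in the ketamine-treated section, and the median ratio was 0.938. A ratio of at least 1.5 in favour of the ketamine-treated section was found for 5 of the 23 (21.7%), namely Meis2, L2_3_IT_ENTl, L2_IT_ENTl, L2_IT_RSP_ACA and L2_IT_RSPv. All but Meis2 are labels of layer 2 or layer 2/3 intratelencephalic neurons. A ratio of at least 1.5 in favour of the resilient section was found for 3 of the 23 (13%), namely L5_IT_TPE_ENT, Ndnf_HPF and DG. Over all 67 types the intervals of spots holding were separate for 5 types that were higher in the ketamine-treated section (7.46%) and for 11 that were lower (16.4%).

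**Figure D1:**
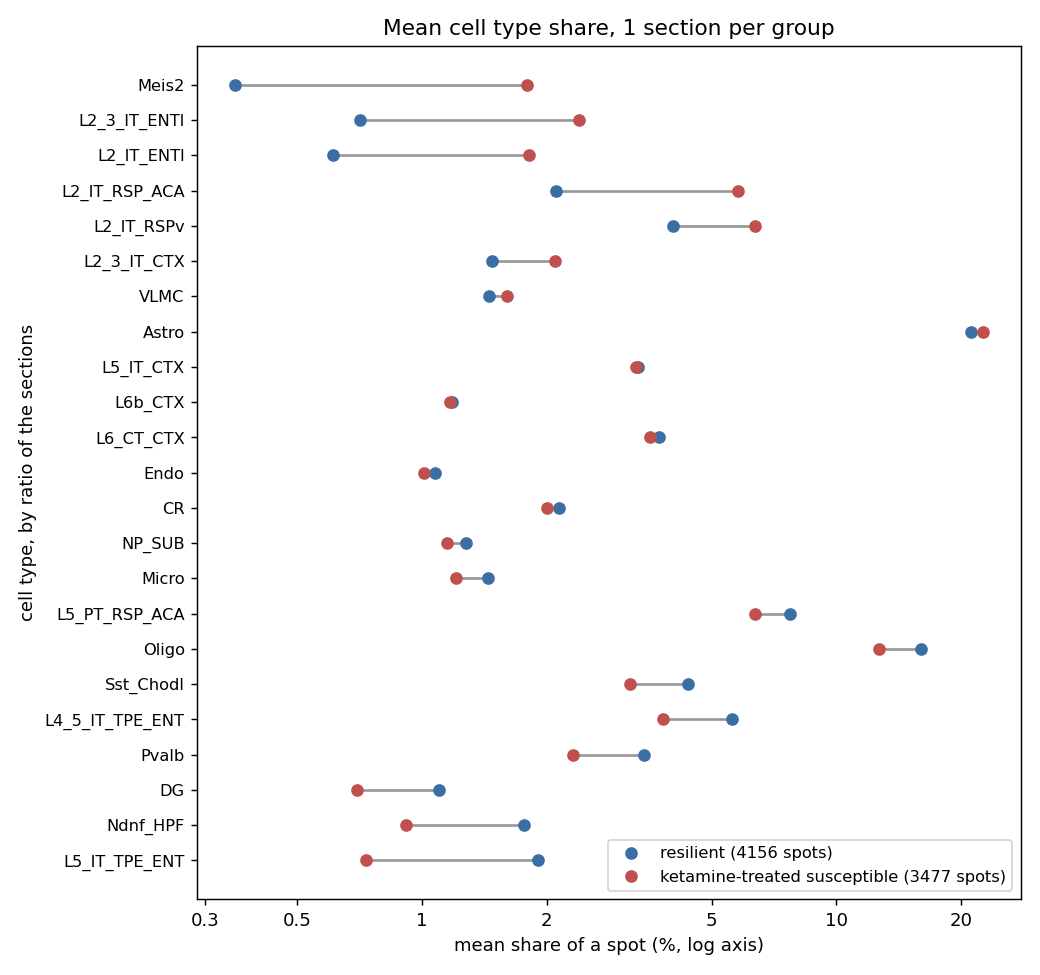
Mean share of a spot (percent, log axis) for the 23 types with at least 1% in either section, ordered by the ratio of the sections; red points are the ketamine-treated susceptible section, blue points the resilient section, and there is 1 section per group, so no error bar across animals can be drawn. Meis2 and 4 upper-layer labels lie at the top with red to the right (L2_IT_RSP_ACA at 5.80% against 2.10%), and L5_IT_TPE_ENT at the bottom with blue to the right (0.731% against 1.90%).

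Oligodendrocytes were less abundant in the ketamine-treated section. The mean share of Oligo was 12.7% against 16.0%, a ratio of resilient over ketamine-treated of 1.27. Oligo was held by 840 spots (24.2%, 22.7 to 25.6%) against 1295 spots (31.2%, 29.8 to 32.6%) and led 521 (14.98%, 13.8 to 16.2%) against 844 (20.3%, 19.1 to 21.6%), with separate intervals on both measures. Where it was held, its mean share was 52.4% and 51.4%, so the sections differed in how many spots held oligodendrocytes and hardly in how much of those spots they filled. Oligo stood alone in 14.5% (12.2 to 17.1%) and 12.3% (10.5 to 14.2%) of its spots, which overlapped. Precursor cells (OPC) had 0.342% against 0.395%, in 32 spots (0.920%, 0.630 to 1.30%) and 45 spots (1.08%, 0.791 to 1.45%), a difference not detectable at this number of spots.

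The lower Oligo share lay mainly in cluster 1, the largest cluster of the resilient section, led there by Oligo and astrocytes. Cluster 1 held 501 ketamine-treated spots (14.4%, 13.3 to 15.6%) and 885 resilient spots (21.3%, 20.1 to 22.6%). Within it, Oligo had a mean share of 21.6% against 31.6%. It was held by 233 of 501 spots (46.5%, 42.1 to 51.0%) against 591 of 885 (66.8%, 63.6 to 69.9%), and led 25.3% (21.6 to 29.4%) against 41.9% (38.6 to 45.3%). Cluster 1 was therefore both smaller in the ketamine-treated section and poorer in oligodendrocytes. It added 3.11 percentage points to the section mean of Oligo in the ketamine-treated and 6.73 in the resilient section, a net of -3.62, beside a difference of -3.35 over all clusters. With all spots of cluster 1 left out of both sections, Oligo had 11.2% against 11.8%, a difference of -0.634.

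Cluster 7, in which Oligo filled most of each spot, was alike in the sections. It held 239 ketamine-treated spots (6.87%, 6.05 to 7.77%) and 231 resilient spots (5.56%, 4.88 to 6.30%), with a mean Oligo share of 70.4% against 71.6% and Oligo in 99.6% against 99.1% of its spots. Oligo was lower in the ketamine-treated section also in cluster 11 (19.7% against 25.9%), cluster 13 (9.54% against 16.8%) and cluster 15 (24.3% against 34.7%), with overlapping intervals of spots holding. It was near equal in cluster 3 (15.14% against 14.96%) and higher in cluster 2 (4.37% against 3.17%) and cluster 8 (12.03% against 8.88%), again with overlapping intervals. Of the 14 clusters with at least 20 spots in both sections, 7 had a higher and 7 a lower mean Oligo share in the ketamine-treated section. Cluster 1 was the only one of the 14 with separate intervals of spots holding Oligo.

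**Figure D2:**
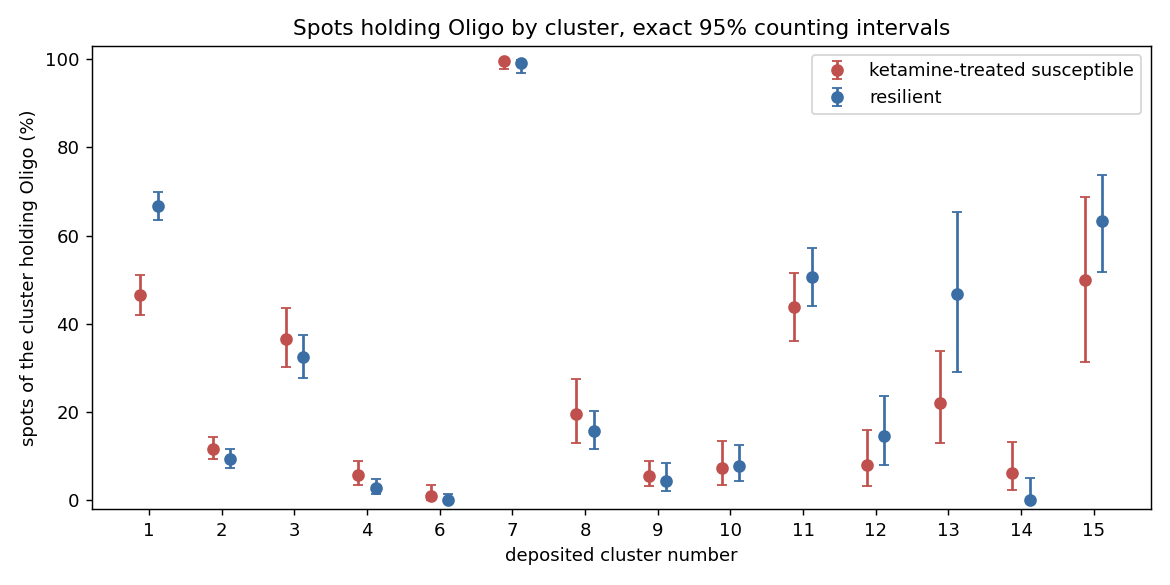
Share of a cluster's spots that hold Oligo (percent) in the 14 clusters with at least 20 spots in both sections; points are the ketamine-treated susceptible (red) and resilient (blue) section and bars are exact 95% intervals of the spot counts. The points stand apart in cluster 1 (46.5% against 66.8%) and nearly coincide in cluster 7 (99.6% against 99.1%).

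The neurons that shared spots with oligodendrocytes differed between the sections. Astrocytes accompanied Oligo in 47.4% (ketamine-treated) and 46.4% (resilient) of its spots, and L2_IT_RSPv in 18.3% and 18.7%. Pvalb, the fast-spiking interneuron label, was in 6.19% (4.66 to 8.04%) against 14.6% (12.7 to 16.6%) of Oligo spots. L5_PT_RSP_ACA, the label of layer 5 pyramidal-tract neurons of retrosplenial and anterior cingulate cortex, was in 5.83% (4.35 to 7.64%) against 14.4% (12.6 to 16.5%). Both neuronal partners were thus less frequent beside Oligo in the ketamine-treated section. Over all spots they were also less frequent, Pvalb in 6.67% against 10.3% and L5_PT_RSP_ACA in 17.4% against 21.7%. L2_IT_RSP_ACA (5.24% against 2.24%) and Meis2 (5.12% against 1.85%) were in more of the Oligo spots of the ketamine-treated section, as they were in more of all its spots (13.3% against 5.80%, and 4.11% against 1.13%). Within cluster 1 alone the direction was the same, with separate intervals, for Pvalb (12.4% against 26.1%), L5_PT_RSP_ACA (6.87% against 20.6%) and Meis2 (5.15% against 1.02%). It turned for L2_IT_RSP_ACA, which was in 3 of 233 against 18 of 591 Oligo spots (1.29% and 3.05%), with overlapping intervals.

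The 2 layer 2 labels of retrosplenial and cingulate cortex had a higher mean share in the ketamine-treated section. L2_IT_RSP_ACA, layer 2 neurons of both areas, had 5.80% against 2.10%, a ratio of 2.76. It was held by 461 spots (13.3%, 12.1 to 14.4%) against 241 (5.80%, 5.11 to 6.55%) and led 219 against 90. Most of its summed share, 83.8% and 84.2%, lay in clusters 2, 6 and 9 in both sections, but the split among these clusters differed. Clusters 2, 6 and 9 added 1.82, 1.78 and 1.27 points to the ketamine-treated section mean. They added 0.376, 1.02 and 0.379 points to the resilient section mean. Cluster 6 thus added the most in the resilient section, while clusters 2 and 6 were near equal in the ketamine-treated section. These clusters were led mainly by cortical layer neurons and astrocytes. Of the 14 clusters, 10 had more L2_IT_RSP_ACA in the ketamine-treated section and 2 had less. L2_IT_RSPv, layer 2 neurons of ventral retrosplenial cortex, had 6.36% against 4.03%, was held by 452 spots (13.0%, 11.9 to 14.2%) against 426 (10.2%, 9.34 to 11.2%) and led 233 against 149. Where held it filled 48.9% against 39.3% of the spot. Of the 14 clusters, 6 had more L2_IT_RSPv in the ketamine-treated section and 7 had less, so its higher share lay in a few clusters. Most of its summed share, 81.2% and 80.4%, lay in clusters 1, 4 and 11, whose other leading types were astrocytes, Oligo, Sst_Chodl, CR and Pvalb, and 11.8% and 7.69% lay in clusters 2, 6 and 9, which hold most of the other cortical layer labels.

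The deeper label of the same areas went the other way. L5_PT_RSP_ACA had 6.35% against 7.74%, in 604 spots (17.4%, 16.1 to 18.7%) against 901 (21.7%, 20.4 to 23.0%), and was lower in 11 of the 14 clusters. Grouped by name, the 17 upper-layer labels (L2 to L4) summed to 23.4% against 15.9%, with 8 higher and 9 lower. The 17 deep-layer labels (L5 and L6) summed to 16.9% against 20.0%, with 4 higher and 13 lower. For all 67 types the counts were 21 higher and 46 lower, so the upper-layer sum was carried by a few abundant labels and not by most of the group. The 4 retrosplenial and cingulate labels summed to 19.2% against 14.1%, with 3 of the 4 higher. The 10 other cortical layer labels summed to 10.9% against 10.7%, and none had separate intervals. Of these, L2_3_IT_CTX had 2.10% against 1.47%, L5_IT_CTX 3.29% against 3.33%, L6_CT_CTX 3.56% against 3.74% and L6b_CTX 1.17% against 1.19%.

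Of the labels of the entorhinal cortex, the gateway between neocortex and hippocampus, 2 lateral ones had a higher mean share in the ketamine-treated section, and only L2_IT_ENTl kept it without the cluster that held most of its share in that section. L2_IT_ENTl had 1.81% against 0.609%, in 106 spots (3.05%, 2.50 to 3.68%) against 64 (1.54%, 1.19 to 1.96%), and filled 59.4% against 39.5% of the spots that held it. Cluster 14 held 56.0% and 43.5% of its summed share, and without that cluster it had 0.820% against 0.350%. L2_3_IT_ENTl had 2.39% against 0.709%, in 127 spots (3.65%, 3.05 to 4.33%) against 63 (1.52%, 1.17 to 1.94%). This difference rested on cluster 5, which held 75.7% of its share in the ketamine-treated section and was nearly missing from the resilient one. Without cluster 5, L2_3_IT_ENTl had 0.633% against 0.710%, a difference of -0.0763, so its direction turned.

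The TPE_ENT labels and the rare medial entorhinal label were lower in the ketamine-treated section. L5_IT_TPE_ENT had 0.731% against 1.90%, in 67 spots (1.93%, 1.496 to 2.44%) against 220 (5.29%, 4.63 to 6.02%), a ratio of resilient over ketamine-treated of 2.60. L4_5_IT_TPE_ENT had 3.81% against 5.61%, in 395 spots (11.4%, 10.3 to 12.5%) against 667 (16.0%, 14.9 to 17.2%), with less of it in 10 of the 14 clusters and more in 3. L2_IT_ENTm had 0.0688% against 0.317%, in 8 against 41 spots. In sum the 10 entorhinal labels came to 9.42% against 9.99%, with 2 higher and 8 lower, beside 46 lower of all 67 types.

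All 13 labels grouped by name as hippocampal and subicular had a lower mean share in the ketamine-treated section. Their sum was 4.21% against 6.38%, beside 46 lower of all 67 types. Labels with PPP, PAR or RHP in the name were not in this group. Of those, L6_IT_RHP was at least 1.5-fold higher and L2_3_IT_PPP at least 1.5-fold lower when no minimum share was set. Only Ndnf_HPF and CA3 among the 13 had separate intervals. Ndnf_HPF, a GABAergic label of the hippocampal formation, had 0.916% against 1.76%, in 70 spots (2.01%, 1.57 to 2.54%) against 172 (4.14%, 3.55 to 4.79%). CA3 pyramidal neurons had 0.201% against 0.463%, in 15 against 46 spots. Granule neurons of the dentate gyrus (DG) had 0.696% against 1.102%, in 33 spots (0.949%, 0.654 to 1.33%) against 65 (1.56%, 1.21 to 1.99%), CA1 had 0.852% against 0.911%, and NP_SUB of the subiculum 1.15% against 1.28%, each with overlapping intervals. L2_IT_HATA (2 resilient spots) and L2_IT_ProS (1 resilient spot) were seen only in the resilient section. A count of 0 in the ketamine-treated section has an exact upper limit of 0.106% of spots.

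Pvalb, Ndnf_HPF, Sncg and Vip were the GABAergic labels that were lower in the ketamine-treated section with separate intervals, and Meis2 was the GABAergic label that was higher with separate intervals. Of the 11 GABAergic labels 3 were higher and 8 lower, a share near that of all types (46 of 67 lower). Pvalb had 2.32% against 3.43%, in 232 spots (6.67%, 5.87 to 7.55%) against 430 (10.3%, 9.44 to 11.3%). Cluster 1 held 33.5% and 58.6% of the summed Pvalb share, and with that cluster left out Pvalb had 1.80% against 1.81%. This near equality covered differences in both directions. Clusters 2, 6 and 9 held 53.7% (ketamine-treated) and 18.2% (resilient) of the summed Pvalb share. Pvalb was higher in cluster 2 (4.64% against 2.67%, separate intervals) and in cluster 9 (4.36% against 2.44%, overlapping intervals). It was lower in cluster 11 (2.79% against 8.42%, separate intervals). Sst_Chodl, the label of long-range projecting somatostatin neurons, had 3.18% against 4.38%. It led 92 spots (2.65%, 2.14 to 3.24%) against 172 (4.14%, 3.55 to 4.79%), while its spots holding, 6.38% (5.59 to 7.25%) and 7.94% (7.14 to 8.80%), overlapped narrowly. Cluster 4 held 68.2% (ketamine-treated) and 83.1% (resilient) of the summed Sst_Chodl share. It added 2.17 and 3.64 points to the section means, a net of -1.46. This net was larger than the difference over all spots, so the lower Sst_Chodl share lay in cluster 4. Sncg (0.204% against 0.492%, 22 against 57 spots) and Vip (0.0145% against 0.165%, 1 against 13 spots) were rare interneuron labels with separate intervals.

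Meis2, a GABAergic label named for a homeobox gene, had the highest ratio of the 23 types. It had 1.79% against 0.354%, a ratio of 5.06, in 143 spots (4.11%, 3.48 to 4.83%) against 47 (1.13%, 0.832 to 1.501%), and led 37 against 5. Of the 14 clusters, 11 had more Meis2 in the ketamine-treated section and 1 had less. Cluster 5 held 42.9% of its share in the ketamine-treated section and none in the resilient one. Without cluster 5 Meis2 still had 1.12% against 0.354%.

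The remaining types of at least 1% overlapped in spots holding. Cajal-Retzius cells (CR), early-born neurons of the cortical surface, had 2.01% against 2.15%. Microglia, the immune cells of the brain, had 1.21% against 1.45% in 3.19% (2.63 to 3.83%) and 4.38% (3.78 to 5.05%) of spots. Leptomeningeal VLMC had 1.61% against 1.45%, and endothelial cells 1.01% against 1.08%. Of the 44 types under 1% in both sections, which summed to 7.94% and 9.67%, 5 had separate intervals and all 5 were lower in the ketamine-treated section (Vip, L2_IT_ENTm, L2_3_IT_TPE, Sncg and CA3). L2_3_IT_TPE had 0.145% against 0.356%, in 12 against 47 spots. The other 39 differed by between -0.156 and 0.381 percentage points. L2_3_IT_APr was seen only in the ketamine-treated section, in 1 spot.

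The cluster proportions of the sections differed as well. Of the 17 clusters, 5 took a larger part of the ketamine-treated section with separate intervals (5, 9, 13, 14 and 16), 4 a smaller part (1, 3, 8 and 15), and 8 overlapped. Cluster 5 had 293 ketamine-treated spots (8.43%, 7.52 to 9.40%) and 2 resilient spots. In the ketamine-treated section it was led by astrocytes (25.2%), L2_3_IT_ENTl (21.5%) and unknown (15.02%), and 44 of the 123 unknown spots lay in it. Cluster 16 had 82 against 10 spots, and was led by astrocytes and L2_IT_ENTl in both sections. Cluster 5 was also present in the control (465 spots) and the untreated susceptible section (239 spots), and cluster 16 in the untreated susceptible section (81 spots) but in 0 control spots. Cluster 8, led by astrocytes and unknown, had 128 spots (3.68%, 3.08 to 4.36%) against 294 (7.07%, 6.31 to 7.90%).

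**Figure D3:**
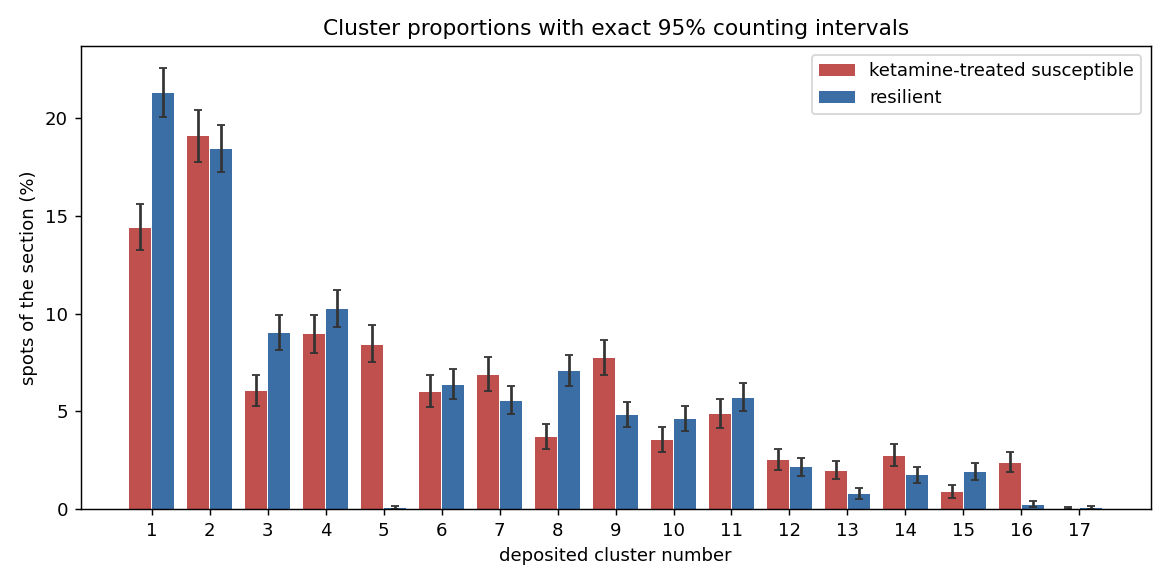
Share of each section's spots in the 17 deposited clusters (percent, bars from 0) for the ketamine-treated susceptible (red) and resilient (blue) section, with exact 95% intervals of the spot counts. Cluster 1 is larger in the resilient section (14.4% against 21.3%), and cluster 5 holds 8.43% of the ketamine-treated section and 2 spots of the resilient one.

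Each difference in mean share was divided by cluster into a makeup part, from unequal cluster proportions, and a within part, from unequal shares inside clusters. For 17 of the 23 types the within part was the larger, so most differences lay inside clusters of the same number. L2_IT_RSPv had a within part of 3.45 points and a makeup part of -1.12, and L2_IT_RSP_ACA had 3.08 and 0.620. Oligo had -1.93 within and -1.42 makeup, L5_PT_RSP_ACA -1.90 and 0.513, and L5_IT_TPE_ENT -1.24 and 0.0731. L2_3_IT_ENTl was the reverse, with -0.468 within and 2.15 makeup. Clusters with fewer than 20 spots in either section, among them cluster 5, count wholly in the makeup part. The glutamatergic class also had mainly a makeup part, 2.48 against 0.535. Astrocytes had a within part of 2.67 and a makeup part of -1.22, and were higher in 11 of the 14 clusters.

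Inside clusters 2, 6 and 9 the ketamine-treated section had more L2_IT_RSP_ACA, and the L4_5_IT_TPE_ENT label was lower in clusters 2 and 9 but not in cluster 6. In cluster 2, led by L5_PT_RSP_ACA and L6_CT_CTX in both sections, L2_IT_RSP_ACA had 9.54% against 2.04% and was held by 25.5% against 6.79% of spots. L5_IT_TPE_ENT had 2.26% against 6.75% there, L4_5_IT_TPE_ENT 6.07% against 8.71%, and astrocytes 8.003% against 3.61%. In cluster 6 L2_IT_RSP_ACA had 29.6% against 16.0%. This was the highest mean share there in the ketamine-treated section, while astrocytes had the highest in the resilient one (23.5%). By spots led in the ketamine-treated section, L2_3_IT_CTX (75 of 209) and L2_IT_RSP_ACA (73) were close in cluster 6. L4_5_IT_TPE_ENT had 12.99% against 10.18% in cluster 6, in 44.98% (38.1 to 51.99%) and 33.6% (27.9 to 39.6%) of its spots, intervals that overlapped. In cluster 9 L2_IT_RSP_ACA had 16.4% against 7.87%, and L4_5_IT_TPE_ENT had 5.22% against 9.88%.

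Clusters 1, 4 and 11 shared a higher L2_IT_RSPv in the ketamine-treated section. L2_IT_RSPv had 17.4% against 11.04% in cluster 1, 18.8% against 4.11% in cluster 4 and 20.0% against 8.18% in cluster 11. Pvalb and L5_PT_RSP_ACA were lower beside it in cluster 1 (5.39% against 9.44%, and 4.34% against 6.82%) and in cluster 11 (2.79% against 8.42%, and 0.535% against 5.69%). In cluster 4 the lower types were Sst_Chodl (24.3% against 35.5%) and CR (7.65% against 12.2%), while astrocytes had 28.6% against 23.1%. All these differences had separate intervals of spots holding.

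Meis2 stood out in clusters 8 and 13, both led by astrocytes. It had 6.67% against 1.23% in cluster 8 and 12.2% against 2.53% in cluster 13, where it was held by 24 of 68 spots against 2 of 32. Smooth muscle cells (SMC) were lower in cluster 13, at 0.626% against 6.33%. Cluster 14 had the least similar content of the 14. Its leading types were L2_IT_ENTl in the ketamine-treated section (37.1%, against 15.3%) and astrocytes (24.7%, against 6.31%) and L2_3_IT_ENTl (24.3%, against 7.18%) in the resilient one. L6_IT_CTX was held by 0 of its 95 ketamine-treated and 19 of its 72 resilient spots, and L5_PT_RSP_ACA had 7.13% against 13.7%.

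Clusters 3, 7, 10, 12 and 15 had no type of at least 5% with separate intervals. Cluster 3 was led by astrocytes (40.5% against 35.3%) and L4_5_IT_TPE_ENT (21.4% against 24.6%). Cluster 10 held most of the summed share of DG, CA1 and CA3 in both sections. It had astrocytes at 39.4% against 28.3%, DG at 18.4% against 23.2% and CA1 at 17.3% against 17.2%. Cluster 12 was led by VLMC (41.6% against 44.8%), and cluster 15 by Oligo, astrocytes and Ndnf_HPF (14.0% against 14.4%). Summed over types, the points of composition not held in common by the sections ranged from 7.43 in cluster 7 to 59.1 in cluster 14, with a median of 21.6 over the 14 clusters.

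**Figure D4:**
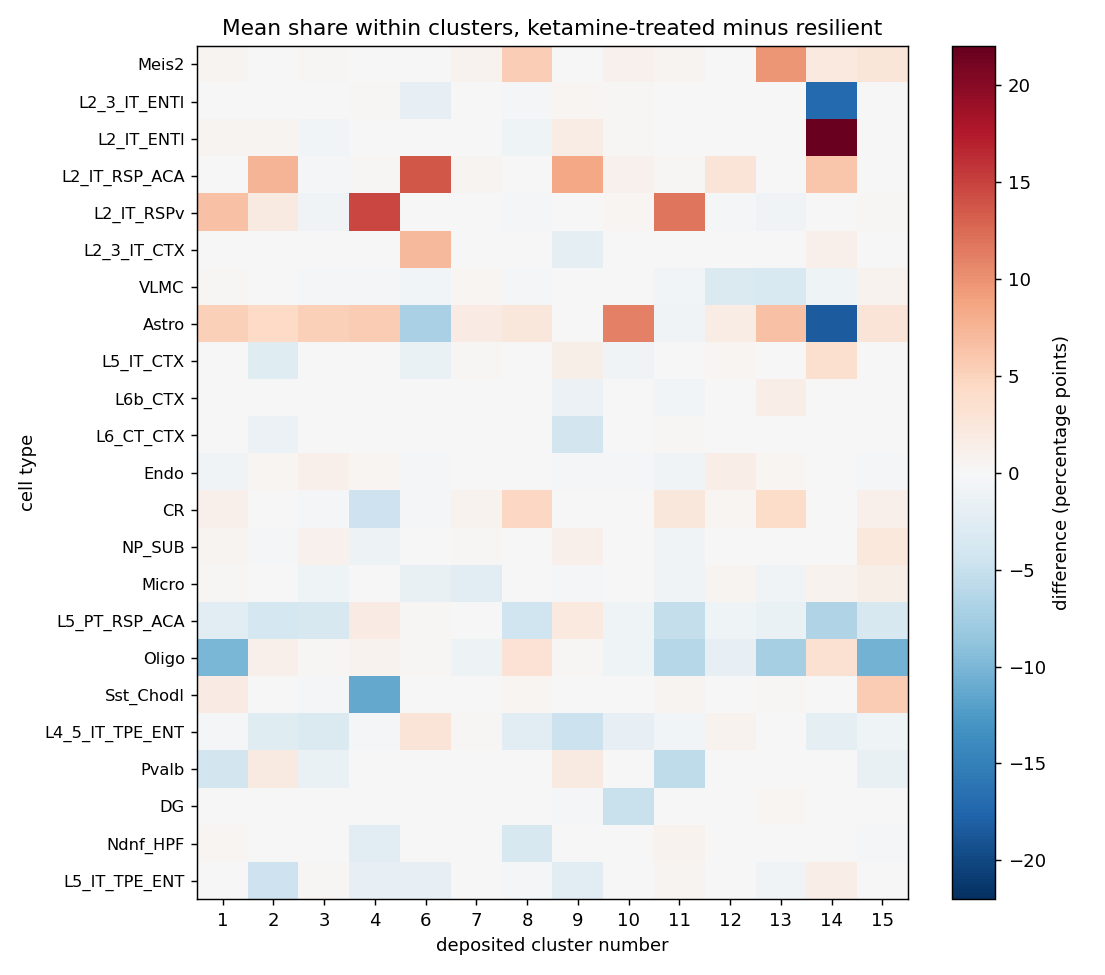
Difference in mean share within each cluster (percentage points, ketamine-treated minus resilient; red is higher in the ketamine-treated section, blue is lower) for the 23 types with at least 1% in either section and the 14 clusters with at least 20 spots in both. L2_IT_RSP_ACA is red in clusters 2, 6 and 9, L2_IT_RSPv in clusters 1, 4 and 11, and Oligo is blue in cluster 1 (21.6% against 31.6%).

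The deposited t-SNE coordinates, a map that places spots judged alike near each other, were examined beside the cell type shares. Which measurements the map was built on was not stated in the sources, so it cannot be called independent of the shares or the clusters. Among the 15 nearest neighbours drawn from the 2 sections, 64.3% of those of ketamine-treated spots were ketamine-treated, where these spots made up 45.6% of all. For resilient spots the values were 70.6% and 54.4%. Spots thus lay nearer to spots of their own section than the proportions alone give. Clusters 7 and 14, which had the most and the least similar content of the 14, also differed in mixing. In cluster 7 the own-section share was 54.4% (ketamine-treated) and 51.9% (resilient), beside 50.9% and 49.1% by proportion. In cluster 14 it was 94.1% and 91.5%, beside 56.9% and 43.1%. The other clusters did not all keep this order. Cluster 8, with 19.7 points of composition not held in common, had 62.3% beside 30.3% for ketamine-treated spots. Cluster 13, with 27.9 points, had 72.2% beside 68.0% for them. Of all neighbours, 94.5% had the same cluster number.

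**Figure D5:**
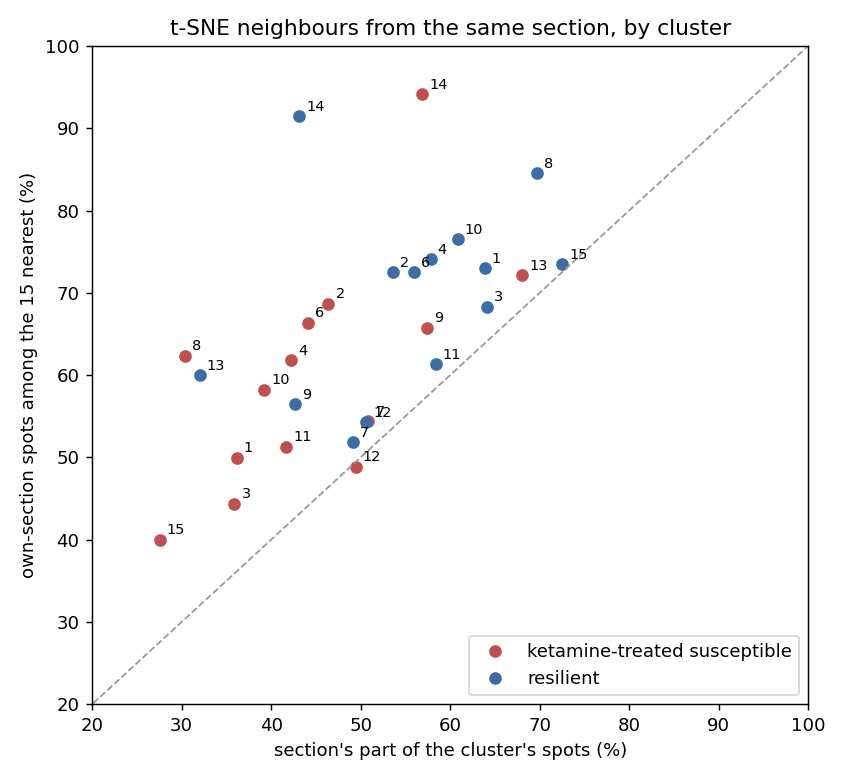
Own-section spots among the 15 nearest t-SNE neighbours (percent) against the section's part of the cluster's spots (percent), for the 14 clusters with at least 20 spots in both sections; red is the ketamine-treated susceptible and blue the resilient section, numbers are clusters, and the dashed line marks equality. Cluster 14 lies far above the line (94.1% and 91.5%), and cluster 7 lies close to it (54.4% and 51.9%).

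Among the 6 possible pairs of sections, the pair stood high by mean composition and in the lower part by cluster proportions. The points of mean composition not held in common were 14.8 for the ketamine-treated and resilient sections, the second highest value. The pair of the ketamine-treated and untreated susceptible sections had the lowest, 7.87, and the resilient and control pair the highest, 17.4. The resilient and untreated susceptible pair (14.2) and the ketamine-treated and control pair (14.1) lay close behind. By cluster proportions the value was 17.9, rank 4 of the 6, below 22.6, 20.8 and 18.8 for the 3 pairs with the control. Pairs share sections, so these values are not independent. The ketamine-treated mean share was closer to that of the untreated susceptible section than to that of the resilient section for 15 of the 23 types. For Oligo the control had 22.3% and the untreated susceptible section 13.9%, so the ketamine-treated section (12.7%) had the lowest of the 4 values and the resilient (16.0%) the second highest. Meis2 was lowest in the resilient section, with 1.33% in the control and 2.46% in the untreated susceptible section. L2_IT_RSP_ACA was highest in the ketamine-treated section, with 4.38% in the control and 4.20% in the untreated susceptible section.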

How the data were processed

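The series holds 4 sagittal brain sections profiled by spatial transcriptomics, 1 per group, of which 2 are compared. Per the file headers, each deposited table gives a cluster number per spot and the fraction of the spot assigned to each of 67 types or to unknown. The submitters' processing notes name mm10 as genome build. For the aligner, the clustering method and the method behind the fractions, the name is not given in the sources used here. No kept fraction was below 10.9% (ketamine-treated) or 10.1% (resilient) of a spot, so smaller contributions are not seen. Gene counts were not analysed here, so depth is unknown and the number of spots limits the precision. The cluster numbers were taken as 1 clustering of all sections. Rows of the deposited t-SNE table, whose coordinates are scores with no unit, were tied to a section by their barcode sets, which matched the sections exactly. The sections shared 3276 barcodes (94.2% and 78.8% of theirs), of which 17 had identical shares. The same cluster number in both was found for 36 of them (1.10%), fewer than the 9.91% that the cluster proportions alone give. The reason for this was not tested.

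Means, counts of spots, exact 95% intervals, the makeup and within parts and t-SNE neighbours were computed in Python 3.11.15 with pandas 2.3.3, numpy 2.4.6 and scipy 1.17.1. The division into makeup and within parts was tried on simulated Oligo shares drawn from the larger clusters of the resilient section. This did not cover clusters with fewer than 20 spots in either section, such as cluster 5. Named were Oligo, OPC, types of at least 1% in either section and rarer types with separate intervals. Within clusters of at least 20 spots in both sections, the 3 leading types and up to 5 types per direction of at least 5% with separate intervals were named. A few others are given as further values. The types, groups and lists were chosen with earlier results of these data known. Alternatives covered the measure, floors on the fractions, cluster weights, minimum shares and clusters left out.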

Additional observations from a re-analysis of the deposited data

How the results depend on the processing

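No paired analysis was possible because the labels give no replicate numbers that pair the sections and each group has 1 section. The 5 types at least 1.5-fold higher in the ketamine-treated section became 4 with equal cluster weights, without cluster 5, without cluster 14 and at a fold of 2. They became 10 of 64 with no minimum share. By spots holding 5 were called, with L2_IT_RSPv not among them. The 3 types at least 1.5-fold lower became 1 with equal cluster weights, 8 by spots holding, 5 by spots led, 22 of 64 with no minimum share and 1 at a fold of 2. The difference for the oligodendrocyte lineage (-3.41 points) was -6.95 by spots holding and -5.56 by spots led. That for glutamatergic neurons (3.02) was 0.566 with equal cluster weights, 0.618 by spots holding and 5.69 by spots led. That for GABAergic neurons (-2.31) was -4.82 by spots holding. The points not held in common (14.8) were 13.6 with equal cluster weights. Leaving out clusters 1, 5 or 14 was chosen after seeing the data. Without cluster 1 the lower types numbered 5, the oligodendrocyte lineage differed by -0.679 and glutamatergic neurons by 0.756. L2_3_IT_ENTl (1.68) turned to -0.496 with equal cluster weights, -0.262 in clusters with at least 20 spots in both sections and -0.0763 without cluster 5, settings that drop cluster 5. All 29 differences of single types stayed in direction and within their counting interval with unknown spots left out, with a floor of 10.9% or 20% of a spot, and with equal weights for the number of types per spot. That interval treats each mean share as if it were a count of spots, so it is approximate. By spots holding 14 of the 29 moved out of it, and by spots led 2 did. Both are other measures than mean share, on another scale, so these counts do not show how stable the mean shares are. With equal cluster weights 2 moved out and 1 reversed. Leaving out cluster 1 moved 2, and leaving out cluster 14 moved 1. In clusters with at least 20 spots in both sections, and without cluster 5, 1 moved out and 1 reversed. The self-section share of t-SNE neighbours with 50 neighbours was 60.8% and 67.9%. Shares too small to be kept limit every count of spots.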

Other observations

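Microglia differed inside the oligodendrocyte cluster although their overall intervals overlapped. In cluster 7, where Oligo filled over 70% of a spot on average in both sections, Micro was held by 20 of 239 ketamine-treated spots (8.37%, 5.19 to 12.6%) and 42 of 231 resilient spots (18.2%, 13.4 to 23.8%), with a mean share of 1.94% against 4.40%. The 2 intervals were separate. This type fell outside the naming rule in that cluster and was chosen after its values were seen. In the ketamine-treated section the cluster with the largest part of the summed Micro share was cluster 5 (18.6%), and in the resilient section cluster 7 (16.9%).

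L5_PT_RSP_ACA differed in both directions in clusters where it had a mean share under 5%, in comparisons chosen after their values were seen. It was held by 7 of 210 ketamine-treated spots against 47 of 375 in cluster 3, and by 0 of 128 against 23 of 294 in cluster 8. In cluster 4 it was held by 14 of 311 spots against 3 of 426, the opposite direction, with separate intervals in each of these clusters. L3_RSP_ACA, a layer 3 label of retrosplenial and cingulate cortex, had 0.637% against 0.256% and led 22 against 6 spots, with separate intervals for spots led and overlapping intervals for spots holding. Astrocytes in the hippocampal cluster 10 had 39.4% against 28.3%, in 65.0% and 56.0% of its spots, intervals that overlapped.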
